A study of Mus musculus with 36 samples.

Results

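Expression of 7 genes of the CD4 and CD8 coreceptor lineages was measured by RNA-seq in mouse CD4+ T cells. These were Cd4, Cd8a, Cd8b1, Zbtb7b, Runx1, Runx3 and Cbfb, out of 56748 genes in the table. They were chosen because Cd8a was higher in HP1a KO than in HP1a WT cells of the Tconv condition. Every member's value in that contrast is therefore a description, and so is each value of Cd8a into which those libraries enter. In the HP1a line, KO cells came from mice that lost HP1α in the germ line (Hp1a-/-, made with a CMV-cre transgene), and WT cells from Hp1a+/+ littermates. In the HP1g line, KO cells came from mice with a floxed Hp1g allele and a Cd4-cre transgene, which acts in T cells, and WT cells from floxed littermates without Cre, so that the transgene and the loss of HP1γ cannot be told apart. Both lines had a mixed background of 129/Sv and C57BL/6, and the mice were sex-matched and 6 to 12 weeks old.

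Each line was studied under 3 conditions in WT and KO cells, giving 12 groups of 3 libraries. Naive cells were splenic CD4+ T cells obtained by magnetic depletion of other cells. Tconv were the progeny of such cells, recovered 3 weeks after transfer into irradiated B6 hosts that received a mixture of B6 and semi-allogeneic B6D2F1 bone marrow, and sorted as CD4+ cells bearing Vβ6. Tconv with Treg came from hosts that were also given WT regulatory T cells expanded ex vivo. Naive cells and Tconv thus differ in isolation and in Vβ6 selection as well as in the allogeneic response, and these cannot be told apart. Replicate 3 of the HP1g KO cells grafted with Treg was not used, which leaves 35 libraries.

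CD4 and the CD8 heterodimer, encoded by Cd8a and Cd8b1, are the coreceptors with which T cells bind MHC class II and class I molecules and bring the kinase Lck to the T cell receptor. In the thymus, cells that carry both choose one. ThPOK, encoded by Zbtb7b, commits cells to the CD4 lineage and keeps CD8 genes silent, whereas RUNX3, with its partner CBFβ, commits cells to the CD8 lineage and silences Cd4. RUNX1 uses the same partner and is also found in mature CD4+ T cells. CD8α alone forms a homodimer on some dendritic cells and on some gut T cells.

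The libraries held 37029519 to 63042245 counts, so that 3 counts correspond to 0.0446 to 0.0816 CPM (counts scaled to library size with TMM factors). Cbx5, which encodes HP1α, lay at 9.25 to 19.7 CPM in KO and 18.6 to 61.9 CPM in WT libraries of the HP1a line, and Cbx3, which encodes HP1γ, at 59.4 to 80.8 CPM in KO and 79.5 to 200.1 CPM in WT libraries of the HP1g line. Within each condition, all KO libraries were below all WT libraries of their line. The summed level of 8 conventional T cell markers was 5057 to 10491 CPM. The reads carry no strand information, and the antisense RNA Gm15417 (4858 counts over 35 libraries) overlaps Zbtb7b, so that reads of the 2 genes cannot be told apart there.

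Sequences upstream of the transcription starts were read from RefSeq (GRCm38.p6, whereas the counts use GRCm39) for the genes that the results turn on. The table held 8 windows for 5 members, and Cd4 and Cd8b1 were not in it. Windows of 250 bases were searched for the RUNX core motif TGTGGT or TGCGGT and, on the other strand, ACCACA or ACCGCA, shown in capitals. A match was present in 2 of the 8 windows, and in 18.59% of all 32851 windows. The Cd8a window at chr6:71373177-71373426 (plus strand) had none, the first Runx3 window at chr4:135120395-135120644 (plus strand) had a pair, 134 and 126 bases before the start, and the second Zbtb7b window at chr3:89387672-89387921 (minus strand) had 1, 89 bases before the start. A match is a match of letters and no more.
Cd8a: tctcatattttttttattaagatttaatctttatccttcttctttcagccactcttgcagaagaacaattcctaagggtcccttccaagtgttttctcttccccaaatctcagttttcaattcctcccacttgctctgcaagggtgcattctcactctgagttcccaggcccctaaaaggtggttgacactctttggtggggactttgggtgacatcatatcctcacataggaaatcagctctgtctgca
Runx3: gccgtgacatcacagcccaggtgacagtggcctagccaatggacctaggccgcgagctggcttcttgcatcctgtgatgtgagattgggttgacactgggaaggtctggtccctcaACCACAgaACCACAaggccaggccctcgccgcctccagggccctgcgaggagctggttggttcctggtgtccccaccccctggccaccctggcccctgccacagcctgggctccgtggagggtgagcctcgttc
Zbtb7b: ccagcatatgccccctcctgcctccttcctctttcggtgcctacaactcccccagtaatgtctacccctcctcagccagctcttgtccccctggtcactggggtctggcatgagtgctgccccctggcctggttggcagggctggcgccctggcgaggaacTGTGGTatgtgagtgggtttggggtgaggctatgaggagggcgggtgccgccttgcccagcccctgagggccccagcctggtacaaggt

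Levels per kilobase of exon were ordered by their median over all conditions. Cd4 (ENSMUSG00000023274, chromosome 6, 124841655 to 124874758, minus strand) had a median of 214 CPM per kb over 35 libraries and ranged from 141 to 299. Cbfb (ENSMUSG00000031885, chromosome 8, 105897291 to 105944633, plus strand) followed with a median of 48.8 and a range of 36.0 to 64.7 CPM per kb. Neither range overlapped with that of another member. Runx3 (ENSMUSG00000070691, chromosome 4, 134847952 to 134905301, plus strand), with a median of 20.3 CPM per kb, and Runx1 (ENSMUSG00000022952, chromosome 16, 92398354 to 92623037, minus strand), with 10.99, came next. Zbtb7b (ENSMUSG00000028042, chromosome 3, 89284942 to 89302144, minus strand) had a median of 6.96 and Cd8b1 (ENSMUSG00000053044, chromosome 6, 71299772 to 71315087, plus strand) one of 2.83 CPM per kb, and the ranges of these 4 genes overlapped with those of their neighbours in the order. Cd8a (ENSMUSG00000053977, chromosome 6, 71350411 to 71356157, plus strand) had the lowest median, 0.0559 CPM per kb, and reached at most 0.450, below every value of Cd8b1, which ends 35323 bases before it on the same strand. The order of the medians was the same within Tconv and within Tconv with Treg. In naive cells Cd8b1, with a median of 10.1 CPM per kb, stood above Zbtb7b, with 7.84, and below Runx1, with 10.9, and its range overlapped with those of both.

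**Figure D1:**
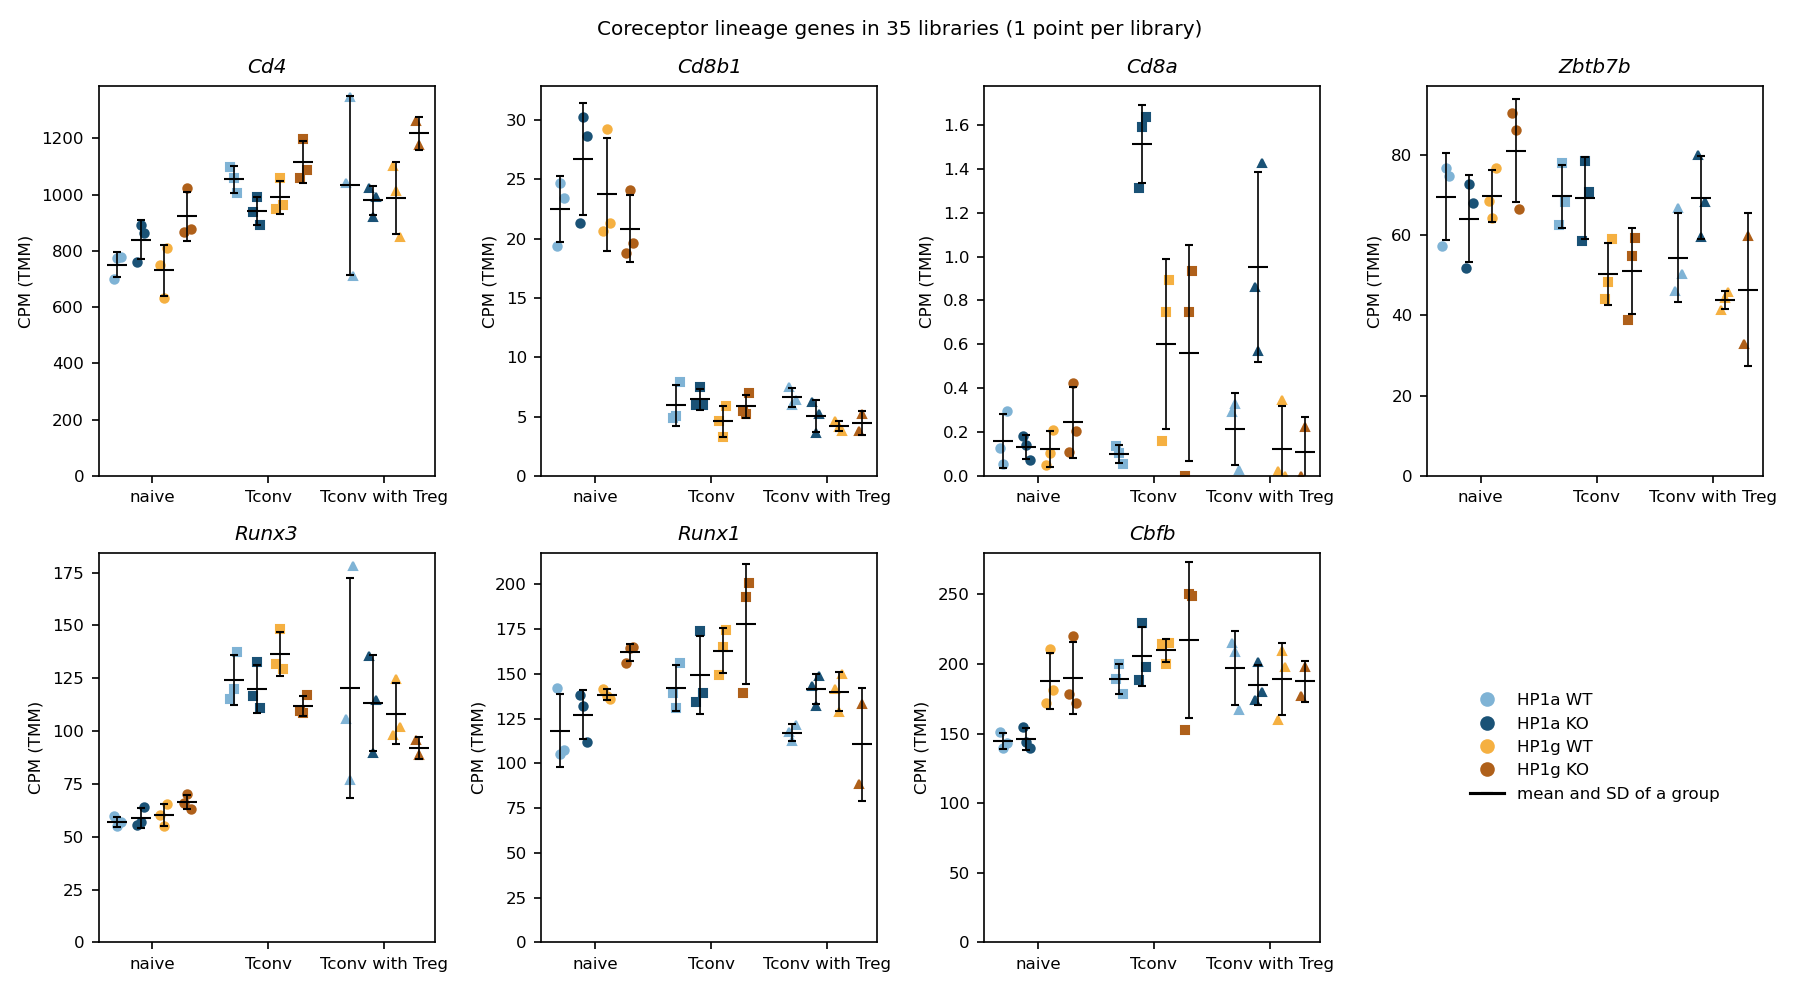
Level of each member in 35 libraries (y axes, CPM with TMM factors, linear from 0), 1 point per library, grouped by condition and coloured by line and genotype, with the mean and SD of each group. Cd8b1 is at 18.8 CPM or more in every naive library and at 7.92 CPM or less in every Tconv library, and Runx3 is at 70.1 CPM or less in naive cells and at 109 CPM or more in Tconv.

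Naive cells and Tconv were compared first, to see how the members vary with the state of the cells. Cd8b1 fell and Runx3 rose in Tconv of both lines and genotypes, whereas the log2 fold changes of Cd4, Zbtb7b, Runx1 and Cbfb lay between -0.64 and 0.51. Genes were called where the adjusted p was under 0.05 (quasi-likelihood test of edgeR, with the Benjamini-Hochberg method applied to all genes tested) and the log2 fold change was above 1 in size. In HP1a WT, HP1a KO and HP1g WT cells 2 members were called, Cd8b1 and Runx3, and in HP1g KO cells 1, Cd8b1. Of all genes, 23.1%, 19.7%, 23.5% and 23.1% were called in these comparisons. Members whose Tconv libraries all lay above the naive ones were Cd4, Runx3 and Cbfb in HP1a WT and Runx3 and Cbfb in HP1a KO. In HP1g WT they were Cd4, Runx1 and Runx3, and in HP1g KO Cd4 and Runx3. Such an order was found in 29.5%, 28.7%, 27.4% and 27.5% of all genes. Cd8a also had it in HP1a KO, as a description only, since these Tconv libraries entered its choice. Besides Cd8b1, Zbtb7b had all Tconv libraries below the naive ones in the HP1g line, beside 28.4%, 26.1%, 24.5% and 26.1% of all genes in the same order.

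Cd8b1 encodes the β chain that pairs with CD8α. In HP1a WT cells it was at 19.4, 24.7 and 23.5 CPM in naive cells and at 4.87, 5.02 and 7.92 CPM in Tconv. In HP1a KO cells the levels were 21.3, 30.2 and 28.6 CPM in naive cells and 5.98, 7.47 and 5.94 CPM in Tconv. The HP1g line gave a like picture. HP1g WT cells held 20.7, 29.2 and 21.4 CPM as naive cells and 4.64, 3.25 and 5.88 CPM as Tconv, and HP1g KO cells 18.8, 24.1 and 19.6 CPM and 5.44, 5.22 and 6.995 CPM. In every naive library Cd8b1 was higher than in every Tconv library, whatever the line or genotype. The log2 fold change was -1.92 (SE 0.22, adjusted p = 0.000238) in HP1a WT, -2.03 (SE 0.18, adjusted p = 0.000153) in HP1a KO, -2.37 (SE 0.27, adjusted p = 0.000466) in HP1g WT and -1.80 (SE 0.18, adjusted p = 9.76e-05) in HP1g KO. Naive libraries held 815 to 1580 counts of Cd8b1 beside 2 to 20 counts of Cd8a. Relative to length, Cd8a made up 0.135 to 1.06% of the CD8 transcripts in naive libraries and 0 to 12.2% in HP1g Tconv. It reached 14.3% in HP1a KO Tconv, a description only, since these libraries entered the choice of Cd8a.

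Runx3 encodes the factor that silences Cd4 in CD8 lineage cells. In HP1a WT cells it was at 59.7, 55.0 and 56.9 CPM in naive cells and at 115, 119.9 and 138 CPM in Tconv. HP1a KO cells held 55.5, 57.1 and 64.3 CPM as naive cells and 116, 133 and 111 CPM as Tconv. Naive and Tconv libraries did not overlap in any group. In the HP1g line, WT cells held 60.4, 55.0 and 65.4 CPM as naive cells and 132, 148 and 129 CPM as Tconv, and KO cells 66.0, 70.1 and 63.2 CPM and 109, 109 and 117 CPM. The log2 fold change was 1.13 (SE 0.10, adjusted p = 4.02e-05) in HP1a WT, 1.04 (SE 0.10, adjusted p = 0.000184) in HP1a KO, 1.18 (SE 0.15, adjusted p = 0.000748) in HP1g WT and 0.78 (SE 0.09, adjusted p = 0.000202) in HP1g KO. The last value is under the fold threshold, and whether it differs from that of HP1g WT was not tested. In HP1a KO cells the value was 0.94 without KO Tconv replicate 2, and 0.99 without KO naive replicate 1 or replicate 2.

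**Figure D2:**
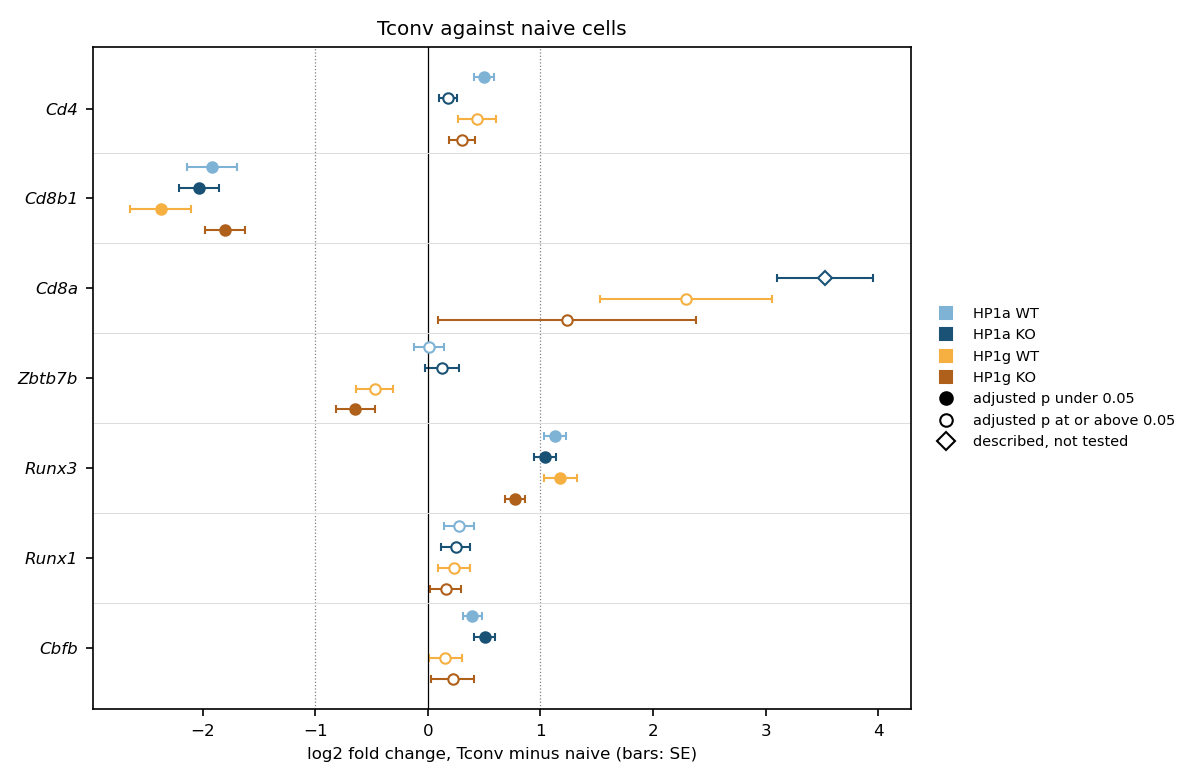
Log2 fold change of each member in Tconv against naive cells (x axis; bars, SE) in the 4 combinations of line and genotype, with filled symbols for an adjusted p under 0.05 and dotted lines at -1 and 1. Cd8b1 lies between -2.37 and -1.80 and Runx3 between 0.78 and 1.18, while Cd4, Zbtb7b, Runx1 and Cbfb lie between -0.64 and 0.51.

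The other members moved less. Cd4 rose in HP1a WT cells, from 699, 776 and 776 CPM in naive cells to 1098, 1057 and 1005 CPM in Tconv (log2 fold change 0.50, SE 0.09, adjusted p = 0.00215). Its log2 fold change was 0.18 in HP1a KO, 0.44 in HP1g WT and 0.30 in HP1g KO cells, with adjusted p-values of 0.122, 0.0813 and 0.0678. Cbfb, the partner of the RUNX proteins, rose in HP1a WT (log2 fold change 0.40, SE 0.08, adjusted p = 0.00468) and in HP1a KO cells (log2 fold change 0.51, SE 0.09, adjusted p = 0.00421). In the HP1g line its log2 fold change was 0.16 in WT and 0.22 in KO cells, with adjusted p-values of 0.459 and 0.400. Without the fold threshold, 4, 3, 2 and 3 members had an adjusted p under 0.05 in HP1a WT, HP1a KO, HP1g WT and HP1g KO cells, beside 45.7%, 40.6%, 31.4% and 41.1% of all genes.

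Zbtb7b, the CD4 lineage factor, fell in HP1g KO cells, from 90.5, 86.1 and 66.5 CPM to 38.9, 54.7 and 59.3 CPM (log2 fold change -0.64, SE 0.17, adjusted p = 0.0182). Without HP1g KO naive replicate 1 or 2 the adjusted p was 0.0704 or 0.0691. In HP1g WT cells the level was 68.4, 64.1 and 76.8 CPM in naive cells and 44.0, 48.2 and 58.9 CPM in Tconv (log2 fold change -0.47, SE 0.17, adjusted p = 0.0653). In the HP1a line the groups overlapped, with log2 fold changes of 0.01 in WT and 0.13 in KO cells, and whether the lines differ was not tested. Runx1 differed by 0.16 to 0.27 on the log2 scale in the 4 comparisons, with adjusted p-values from 0.126 to 0.411.

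Ratios between members within a library do not depend on the scaling between libraries. Relative to length, Runx3 over Zbtb7b was 1.28 to 1.92 in the 12 naive libraries (median 1.53) and 2.76 to 5.51 in the 12 Tconv libraries (median 3.57), without overlap. Cd4 over Cd8b1 was 10.6 to 22.7 in naive and 62.4 to 159.8 in Tconv libraries, also without overlap. Runx3 over Runx1 was 0.967 to 1.45 in naive and 1.42 to 2.31 in Tconv libraries, where the lowest Tconv value, of an HP1g KO library, lay below the highest naive value.

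**Figure D3:**
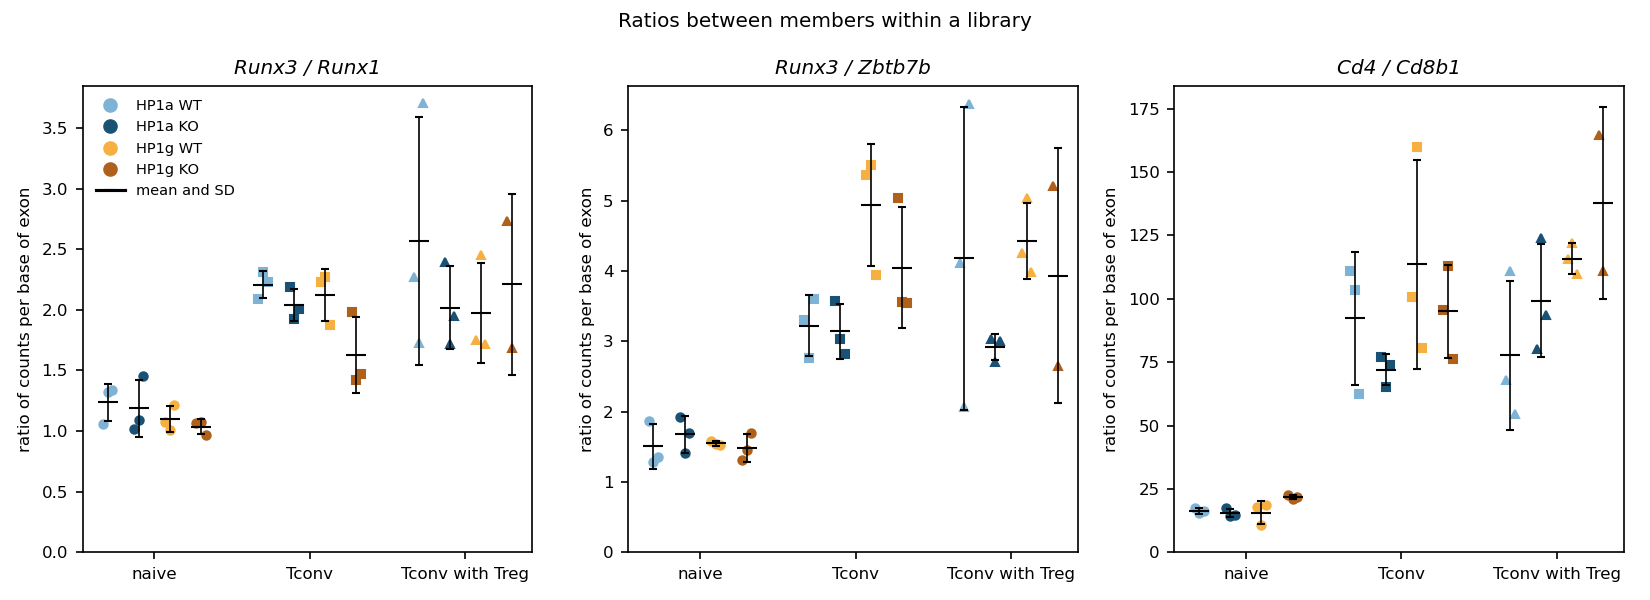
Ratio of counts per base of exon between pairs of members in each of 35 libraries (y axes linear from 0), by condition, line and genotype, with the mean and SD of each group. Runx3 over Zbtb7b is at most 1.92 in naive cells and at least 2.76 in Tconv, and Cd4 over Cd8b1 is at most 22.7 in naive cells and at least 62.4 in Tconv.

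Genes around the members were read from lists. Of 18 lineage regulators, 2 were called higher and 6 lower in HP1a WT Tconv, 2 and 5 in HP1a KO, 2 and 5 in HP1g WT, and 1 and 4 in HP1g KO. Runx2, the remaining gene of the RUNX family, rose from 0.329 to 136 CPM in HP1a WT, 0.299 to 96.1 CPM in HP1a KO, 0.339 to 94.3 CPM in HP1g WT and 0.668 to 81.3 CPM in HP1g KO cells (group means). Lef1 and Tcf7, HMG factors that act upstream of Zbtb7b in the thymus, fell in all 4 comparisons, in HP1a WT cells from 1308 to 230.0 CPM and from 1850.1 to 612 CPM. Gata3, which promotes CD4 lineage commitment, rose from 95.7 to 458 CPM in HP1a WT (adjusted p = 6.63e-05), and Satb1, a chromatin organiser of thymocytes, fell from 1266 to 215 CPM in HP1g KO cells (adjusted p = 0.000198). The median log2 fold change of the list was -0.51, -0.43, -0.17 and -0.18 in the 4 comparisons, beside -0.04, -0.01, -0.03 and 0.02 over all genes tested.

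Of 12 genes of the cytotoxic programme, which RUNX3 promotes in CD8 lineage cells, 10 were called higher in each of the 4 comparisons, and 1 was called lower in HP1a WT cells. Nkg7, a protein of cytotoxic granules, rose from 0.985 to 1106 CPM in HP1a WT cells (adjusted p = 6.44e-08). Gzmb, which encodes granzyme B, reached 208 ± 44.3 CPM (SD, n = 3) in HP1a WT and 486 ± 162 CPM (SD, n = 3) in HP1g KO Tconv. The median log2 fold change of this list was 5.87, 6.05, 5.63 and 4.77 in the same order.

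Markers of other cells, some of which T cells can also express, differed between naive cells and Tconv. The 6 NK cell markers summed to 0.0914 to 0.499 CPM in naive libraries and 4.30 to 37.2 CPM in Tconv, with 2, 3, 4 and 4 called higher in HP1a WT, HP1a KO, HP1g WT and HP1g KO cells. The 10 dendritic cell markers summed to 6.62 to 9.82 CPM in naive cells and 21.1 to 77.0 CPM in Tconv, with 3, 4, 4 and 3 called higher in the same order and 1 called lower in HP1g WT cells. This list includes Itgax and Ccr9, which activated T cells can express, while Clec9a, Flt3 and Siglech had no counts in HP1a WT Tconv. Of 10 myeloid markers 4, 5 and 6 were called higher in HP1a KO, HP1g WT and HP1g KO cells and 1 lower in HP1a WT cells. The myeloid sums were 5.998 to 12.9 CPM in naive libraries, 6.63 to 7.67 CPM in HP1a WT Tconv and 12.1 to 164, 26.0 to 526 and 36.6 to 143 CPM in HP1a KO, HP1g WT and HP1g KO Tconv. Some NK and dendritic markers were thus called higher in all 4 comparisons, as were 10 of the 12 cytotoxic genes.

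Erythroid markers went in different directions. In HP1a WT cells they summed to 37.7 to 98.0 CPM in naive libraries and 2.04 to 3.44 CPM in Tconv, with 5 of 7 called lower. In HP1a KO cells the sums were 41.1 to 179.8 and 26.5 to 771 CPM. For HP1g, 6 were called higher in WT and 5 in KO cells, where the sums were 10.0 to 50.6 and 64.7 to 78.7 CPM in naive cells and 75.9 to 4968 and 159 to 3330.0 CPM in Tconv. The 5 γδ T cell markers had 3 called higher in each comparison and summed to 10.3 to 19.4 CPM in naive cells and 24.5 to 115 CPM in Tconv. The 6 thymocyte markers had 2 called lower in each and summed to 77.6 to 101 and 35.4 to 63.3 CPM. In HP1g WT Tconv replicate 2, 1 of these 6 genes gave the whole sum of 35.8 CPM. Of 8 B cell markers 1 was called higher in each, and 3, 2, 2 and 3 lower in HP1a WT, HP1a KO, HP1g WT and HP1g KO cells, with sums of 3.67 to 10.3 and 3.43 to 19.8 CPM. The conventional T cell markers summed to 5564 to 10061 and 5057 to 6183 CPM. The part of these transcripts in the changes of the members and of the lists was not tested.

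Cd8a differed between the genotypes in HP1a Tconv, which is the reason for the choice of the members. It was at 1.31, 1.59 and 1.64 CPM (55, 69 and 103 counts) in KO and at 0.136, 0.105 and 0.0537 CPM (5, 5 and 2 counts) in WT libraries. The groups did not overlap. The summed counts of 227 in KO and 12 in WT libraries (ratio 15.5) correspond to a fitted log2 fold change of 3.91 (SE 0.42). No test or interval is given, since these values chose the members. Of all genes, 0.103% were called in this contrast and 7.11% had all KO above all WT libraries. The partner gene Cd8b1 overlapped between the genotypes in the same libraries, with a log2 fold change of 0.12 (SE 0.23), as did Zbtb7b (-0.01), Runx1 (0.07), Runx3 (-0.05) and Cbfb (0.12).

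Libraries that played no part in the choice were then read for Cd8a. In HP1a Tconv with Treg it was at 0.861, 0.572 and 1.42 CPM in KO and 0.293, 0.327 and 0.0260 CPM in WT libraries, again without overlap, as for 11.7% of all genes in that direction. The summed counts were 143 and 31 (ratio 4.38, exact 95% interval 2.95 to 6.68), and the gene did not pass the test over libraries (log2 fold change 2.11, SE 0.93, adjusted p = 0.423). Exact intervals of summed counts cover counting error only, not the spread between libraries. In naive cells of this line Cd8a was under the filter on low counts, with 18 counts in KO and 30 in WT libraries (ratio 0.751, exact 95% interval 0.394 to 1.39). It was also under the filter in naive cells of the HP1g line, with 32 counts in KO and 15 in WT libraries (ratio 1.92, exact 95% interval 1.011 to 3.82).

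In the HP1g line Cd8a was at 0.161, 0.745 and 0.893 CPM in WT and at 0, 0.746 and 0.933 CPM in KO Tconv, with 84 and 76 summed counts (ratio 0.902, exact 95% interval 0.652 to 1.24; log2 fold change -0.09, SE 1.21, adjusted p = 0.993). A library with 0 counts allows up to 3. The HP1g WT Tconv libraries held 8, 33 and 43 counts, and the HP1a WT Tconv libraries 5, 5 and 2 counts. This is a description, since the latter entered the choice of Cd8a. Whether the WT cells of the lines differ was not tested. Against naive cells, the log2 fold change was 2.29 (SE 0.76, adjusted p = 0.0538) in HP1g WT and 1.23 (SE 1.15, adjusted p = 0.432) in HP1g KO cells, and 3.53 (SE 0.43), described only, in HP1a KO cells. Without replicate 1 of the Tconv group, the values were 2.75 with an adjusted p of 0.0169 in HP1g WT and 1.83 with an adjusted p of 0.0143 in HP1g KO cells. Without HP1g WT Tconv replicate 2 the adjusted p in HP1g WT cells was 0.147. Without HP1g KO Tconv replicate 3 it was 0.757 in HP1g KO cells. DESeq2 gave 2.32 with an adjusted p of 0.0325 in HP1g WT cells.

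Transcripts of other cells were followed beside Cd8a. CD8α is also carried by a class of dendritic cells, and 10 markers of these and of plasmacytoid dendritic cells summed to 27.5 to 77.0 CPM in HP1a KO Tconv, with all 10 detected, and to 33.4 to 48.2 CPM in HP1a WT Tconv, with 7 detected and Clec9a, Flt3 and Siglech at 0. Activated T cells can express Itgax and Ccr9 of this list, which had means of 15.6 and 22.3 CPM in HP1a WT Tconv. Siglech, which marks plasmacytoid dendritic cells, was at 1.65, 0.161 and 12.4 CPM in the KO libraries. Xcr1, of the CD8α+ class, had 89, 3 and 80 counts in KO and 14, 30 and 40 counts in WT libraries. KO replicate 2 had 7 counts of Siglech, 3 of Xcr1 and 0 of Clec9a, with 9 of the 10 markers detected, and 69 counts of Cd8a.

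Markers of other lineages were read as well. The 10 myeloid markers summed to 12.1 to 164 CPM in KO and 6.63 to 7.67 CPM in WT Tconv of the HP1a line. The 7 erythroid markers summed to 26.5 to 771 and 2.04 to 3.44 CPM, and neither sum overlapped between the genotypes. The sums of NK cell markers (9.27 to 37.2 and 4.30 to 13.1 CPM) overlapped. So did those of B cell markers (6.48 to 15.5 and 5.26 to 19.8 CPM) and γδ T cell markers (42.7 to 59.6 and 47.9 to 115 CPM). No single marker of these lists was called by edgeR in this contrast. Rag1 and Rag2, which define immature thymocytes, were at 0 in these 6 libraries, where the 6 markers of that stage summed to 35.4 to 47.9 CPM. With Treg, the dendritic markers summed to 45.4, 11.5 and 57.2 CPM in KO and 16.6, 14.6 and 18.2 CPM in WT libraries of the HP1a line (replicates 1 to 3), so that the 3 KO libraries had the same order in these sums as in Cd8a, while the WT library with the highest sum had the least Cd8a. For HP1g WT cells the sums were 33.9, 64.8 and 56.4 CPM in Tconv and 13.9, 40.6 and 36.8 CPM with Treg, where the library with the least Cd8a had the lowest sum in Tconv and that with the most Cd8a the highest sum with Treg. In KO cells of this line they were 24.6, 21.1 and 30.5 CPM in Tconv and 5.09 and 25.6 CPM with Treg, with the highest sum in the library with the most Cd8a of each group. The whole order of the sums differed from that of Cd8a in the HP1g groups of 3 libraries. In HP1a Tconv with Treg, the myeloid markers summed to 251 to 609 CPM in KO and 22.6 to 67.7 CPM in WT libraries. In the HP1g line, replicate 1 of each grafted group held the most erythroid transcripts (3330.0 to 6118 CPM against 75.9 to 313 CPM in the others). KO replicate 2, with 1.59 CPM of Cd8a, had the lowest sums of the HP1a KO Tconv libraries for dendritic (27.5 CPM), myeloid (12.1 CPM) and erythroid markers (26.5 CPM), of which the last 2 were still above those of all WT libraries. The part of these transcripts in the level of Cd8a was not tested. In bulk libraries, more cells with a transcript and more transcript per cell cannot be told apart.

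**Figure D4:**
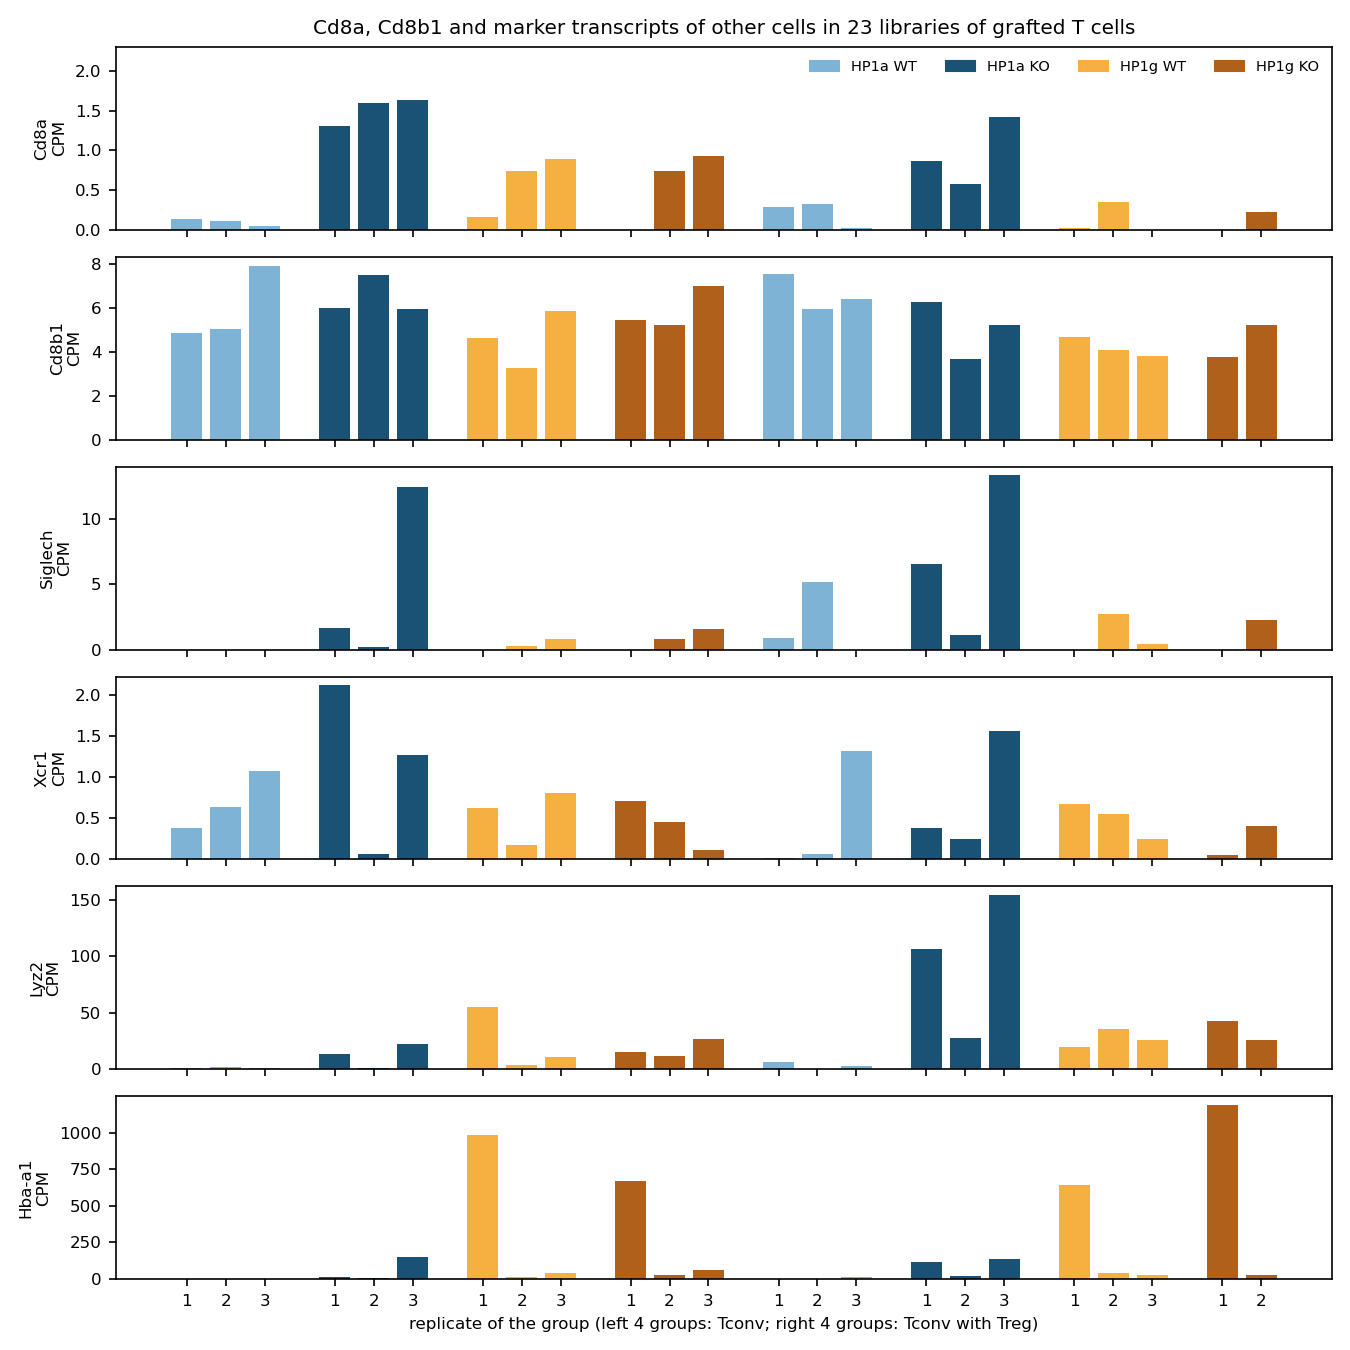
Cd8a, Cd8b1 and marker genes of other cells (CPM, linear axes from 0) in the libraries of grafted cells, by library within each group. Cd8a is at 1.31 CPM or more in all 3 HP1a KO Tconv libraries, of which replicate 2 has 0.161 CPM of Siglech and replicate 3 has 12.4 CPM, while Cd8b1 stays between 3.25 and 7.92 CPM throughout.

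The loss of HP1α or HP1γ was then examined in the other members. No member was called in the 5 comparisons of KO with WT apart from that which chose them. Of all genes, 0% were called in HP1a naive cells, 0.123% in HP1a Tconv with Treg, 0.00669% in HP1g naive cells, 0.0437% in HP1g Tconv and 0% in HP1g Tconv with Treg. By edgeR, 1 member, Runx3 in HP1g Tconv, had an unadjusted p under 0.05, and DESeq2 also called 0. The share of all genes at an unadjusted p under 0.05 is not given, here or below. Such counts of members or list genes are therefore descriptions. Outside Cd8a, the largest log2 fold change in size was 0.24, 0.41, 0.35, 0.37 and 0.33 in the same order. With the replicate block, 12, 74 and 30 genes were called in HP1a naive cells, HP1g Tconv and HP1g Tconv with Treg. Without it these were 0, 7 and 0. No member was called with the block.

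Genes around the members were read in the same comparisons. By edgeR 0 of 18 lineage regulators were called in each, with 1, 5, 0, 5 and 3 at an unadjusted p under 0.05 in the same order, and DESeq2 called 0, 2, 0, 3 and 3. Of the cytotoxic genes tested, edgeR called 0, with 0, 4, 3, 2 and 3 at an unadjusted p under 0.05, and DESeq2 called 0, 1, 1, 1 and 1. For 12 genes of T cell receptor and coreceptor signalling both tools called 0. Of these, 0, 6, 0, 2 and 3 had an unadjusted p under 0.05 by edgeR. Among all genes DESeq2 called 15, 707, 38, 258 and 604 in the same order. Whether the lists hold more such genes than others was not tested.

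**Figure D5:**
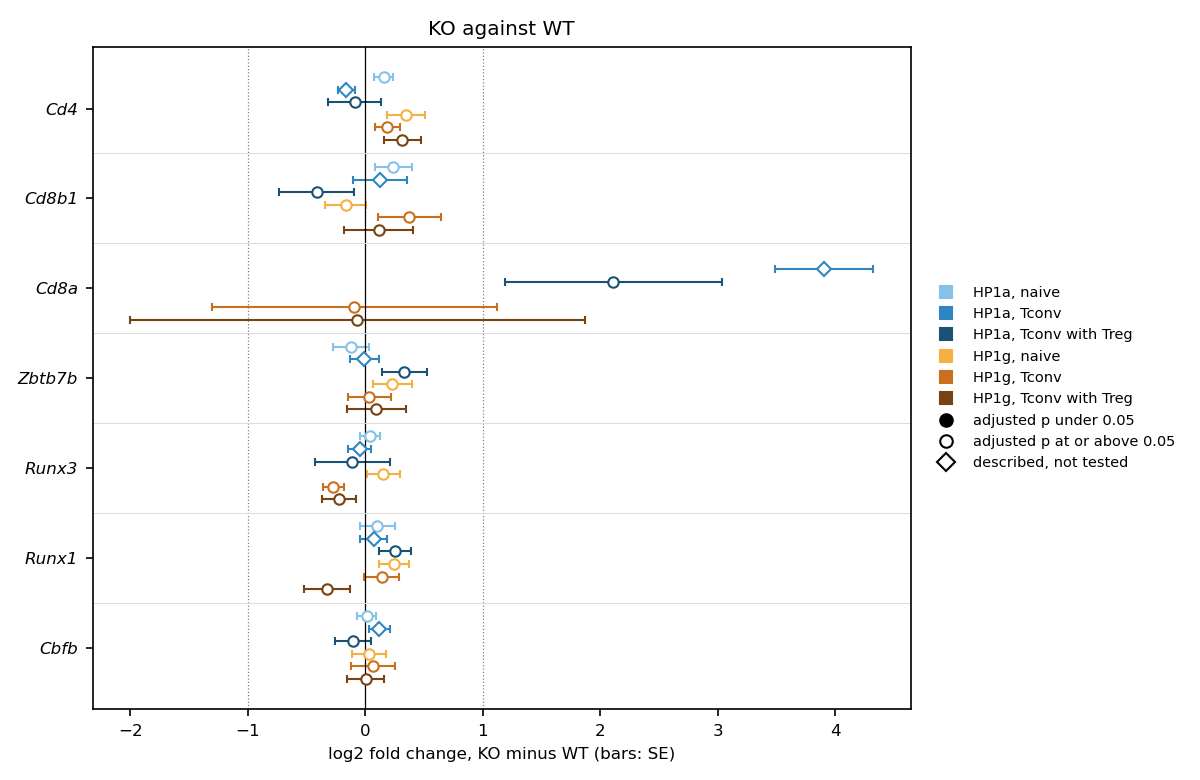
Log2 fold change of each member in KO against WT cells (x axis; bars, SE) for both lines and the 3 conditions, with separate symbols for the contrast that chose the members, which was not tested, and none where Cd8a was under the filter. Adjusted p-values of the tested members are 0.423 or more, and outside Cd8a all values lie between -0.41 and 0.37.

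Cd4 was higher in KO than in WT cells of the HP1g line in each condition, without overlap between the groups. In naive cells it was at 867, 1024 and 877 CPM in KO and 751, 632 and 809.7 CPM in WT libraries. In Tconv the levels were 1058, 1199 and 1088 CPM in KO and 950.2, 1057 and 962 CPM in WT libraries. With Treg they were 1259.8 and 1175 CPM in the 2 KO and 1099.7, 1013 and 849 CPM in the 3 WT libraries. The log2 fold changes of 0.35 (SE 0.16), 0.19 (SE 0.11) and 0.32 (SE 0.16) had adjusted p-values of 0.630, 0.740 and 0.511, so that none passed the test. Of all genes, 10.1%, 6.88% and 14.9% had the KO libraries all above the WT libraries in the single conditions. The share with this order in all 3 conditions was not taken. The Cd4-cre transgene is carried by the KO cells alone. In the HP1a line the groups overlapped in naive cells (log2 fold change 0.16) and with Treg (-0.09), and in Tconv Cd4 was at 938, 993 and 892 CPM in KO, below all WT libraries, an order found in 7.97% of all genes.

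Runx3 was lower in HP1g KO than in HP1g WT Tconv, without overlap, at 109, 109 and 117 CPM against 132, 148 and 129 CPM. The log2 fold change of -0.27 (SE 0.09) had an adjusted p of 0.437, and 7% of all genes had the same order. With Treg, Runx3 in this line was at 95.7 and 88.5 CPM in KO and 98.3, 125 and 102 CPM in WT libraries (log2 fold change -0.22, SE 0.14, adjusted p = 0.619), again without overlap, beside 14.2% of all genes. In the HP1a line the Runx3 groups overlapped in all 3 conditions. Runx1 was higher in HP1g KO naive cells (156, 165 and 165 CPM) than in WT (142, 138 and 136 CPM), with an adjusted p of 0.630, beside 10.1% of all genes with that order. It was also higher in HP1a KO than in WT Tconv with Treg (143, 132 and 149 against 118, 113 and 122 CPM), with an adjusted p of 0.506, beside 11.7% of all genes. Zbtb7b and Cbfb overlapped between KO and WT in all 6 comparisons.

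Co-injected Treg were examined last. No member was called in Tconv with Treg against Tconv in HP1a WT, HP1a KO, HP1g WT or HP1g KO cells, where 5.96%, 0.44%, 0.0126% and 0% of all genes were called by edgeR. At an unadjusted p under 0.05 there were 0, 0, 1 and 1 members, and DESeq2 called 0. Runx1 was lower with Treg in HP1g KO cells, at 88.3 and 133 CPM against 139, 193 and 201 CPM (log2 fold change -0.67, SE 0.25, adjusted p = 0.634). Cd8b1 and Runx3 were also lower there without overlap, as were Runx3 in HP1g WT and Runx1 in HP1a WT cells, beside 12%, 7.03% and 18.7% of all genes with that order in HP1g KO, HP1g WT and HP1a WT cells. Outside Cd8a, the largest log2 fold change in size was 0.34 in HP1a WT, 0.35 in HP1a KO and 0.33 in HP1g WT cells.

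Cd8b1 lay between 3.65 and 7.53 CPM in the 11 libraries with Treg. Runx3 ranged most widely in HP1a WT cells, at 106, 77.1 and 178 CPM. Replicate 3 of this group, with the highest Runx3, had the lowest Cd4, at 711 CPM, and its cytotoxic genes summed to 15358 CPM against 5039 and 1882 CPM in replicates 1 and 2. Cd8a in the HP1g line was at 0.0205, 0.348 and 0 CPM in WT and 0 and 0.221 CPM in KO cells with Treg, and its log2 fold change against Tconv in WT cells was -2.34 (SE 1.27, adjusted p = 0.769).

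Regulators around the members changed with Treg in the HP1a line, where 2 of 18 were called higher and 2 lower in WT cells. Tox, which is required for CD4 T cell development in the thymus, rose from 28.1 to 468 CPM (adjusted p = 0.00170), and Myb, which acts upstream of Gata3, from 6.92 to 71.6 CPM (adjusted p = 0.00206). Satb1 fell from 517 to 150.4 CPM (adjusted p = 0.00751) and Gata3 from 458 to 147 CPM (adjusted p = 0.0117). Of the 12 cytotoxic genes, 4 were called higher, among them Eomes, a T-box factor of cytotoxic cells (from 14.1 to 159 CPM), and 2 lower, among them Ctsw (from 465 to 157 CPM). Markers of other cells moved with Treg in the same WT libraries. NK cell markers summed to 4.30 to 13.1 CPM without and 21.9 to 74.9 CPM with Treg, where Tyrobp was called higher (adjusted p = 0.0173), and myeloid markers to 6.63 to 7.67 and 22.6 to 67.7 CPM, where Cd68 was called higher (adjusted p = 0.00999). Their part in these changes was not tested. In HP1a KO cells Tox rose from 31.1 to 134 CPM and Satb1 fell from 579.9 to 265 CPM, and edgeR called 0 and DESeq2 3 cytotoxic genes, with 4 at an unadjusted p under 0.05. In the HP1g line edgeR called 0 of these regulators in WT and in KO cells, with 6 and 2 at an unadjusted p under 0.05, and DESeq2 called 0 and 2. Cytotoxic genes called in this line were 0 by both tools, with 1 and 2 at an unadjusted p under 0.05. Among all genes DESeq2 called 429 in HP1a KO, 52 in HP1g WT and 263 in HP1g KO cells.

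Effects were also compared with each other. The interaction of genotype and Treg in the HP1g line called 0 members and 0% of all genes (edgeR, with 0 members at an unadjusted p under 0.05 and 0 members called by DESeq2). The difference between the KO effects of the lines in Tconv with Treg called 0 members and 2.72% of all genes, with 1 member, Runx1, at an unadjusted p under 0.05 (0.59, SE 0.24, adjusted p = 0.219) and 0 members called by DESeq2. Without HP1g KO replicate 2, which leaves 1 library in that group, assumed to vary like those of the other groups, the log2 difference was 0.93 and the adjusted p of Runx1 was 0.0361. Cd8a differed by 2.21 (SE 2.25, adjusted p = 0.673) on the log2 scale. Tox (-4.37, adjusted p = 0.0107), Myb (-3.28, adjusted p = 0.0347) and Zap70, a kinase recruited to the T cell receptor (-1.36, adjusted p = 0.0149), had a lower KO effect in the HP1a than in the HP1g line.

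Genes with the pattern most like each member were taken from 10238 genes by Pearson correlation over the 12 group means, as a description. Cd8b1 was most like Mettl9 (r = 0.987), Nicn1 and Tmem108, and Runx3 most like Mtmr7 (r = 0.983), Cd7 and Camk2n1. Cd4 was most like Gpr107 (r = 0.963), Zfp52 and Flywch1, and Cbfb most like Golt1b (r = 0.909), Hsp90b1 and Anp32e. For Runx1 these were Crkl (r = 0.926), Ssr3 and Cd40lg, and for Zbtb7b Ddx39b (r = 0.898), Mvd and Rad9a. Cd8a had the lowest likeness to any gene, with Pira2 (r = 0.813), Fos and Mrc1. Its group means include the libraries that chose it, so nothing is drawn from this likeness. No member was among the 3 genes most like another.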

How the data were processed

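RNA-seq libraries (SMART-Seq amplification, which does not mark strand) were aligned and quantified by the authors with STAR and Salmon on GRCm39. The deposited values are estimated counts per gene, neither scaled nor filtered, and 82.9% are whole. They were rounded to whole numbers. The study's methods exclude 1 library, HP1g KO Tconv with Treg replicate 3, for its GC content, exonic share and 5'-3' bias. Among 34 pairs of replicates, 0 were identical. The labels do not say whether libraries came from separate mice, so that p-values measure the spread between these libraries, which may be technical.

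Tests used edgeR 4.0.16 in R 4.3.3 (quasi-likelihood with robust fit, TMM, filterByExpr, only the groups compared) for 14 comparisons and 2 differences of effects. Calls needed an adjusted p under 0.05 and a log2 fold change above 1 in size. The code was tested on simulated data. Lengths are exon unions of the GENCODE annotation of GRCm39. Alternatives were DESeq2 1.42.0, RLE factors, no filter, no fold threshold, a replicate block, leaving out each library, including the excluded library and, chosen after seeing the data, leaving out replicate 1 of the HP1g groups. The replicate numbers paired the libraries in some comparisons, with correlations of deviations above 0.1 in every pair. These were HP1a KO against WT naive cells and HP1g KO against WT Tconv. HP1g KO against WT Tconv with Treg was another (0.32 for replicate 1 and 0.16 for replicate 2). The members and the 11 gene lists were chosen with earlier results of these data known. All members are named, with called genes of the lists by adjusted p, up to 4 per list and comparison. Likeness used log2(CPM + 0.5) of protein-coding genes with a group mean of at least 5 CPM. The signalling list is not reported here for Tconv against naive cells.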

Additional observations from a re-analysis of the deposited data

Results flagged for a closer look

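The library not used in the comparisons, replicate 3 of HP1g KO Tconv with Treg, held more Zbtb7b and Runx1 than any of the other 35 libraries. As a share of its total counts, Zbtb7b was at 268 CPM, beside 32.8 to 90.6 CPM in the others, and Runx1 at 363 CPM, beside 88.1 to 197 CPM. In the same library Cbfb was at 4.63 CPM, Cd8b1 at 0.298 CPM and Cd4 at 298 CPM, each below the lowest of the others (147, 3.11 and 534 CPM). The cause was not tested.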

How the results depend on the processing

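In 11 of 15 tested comparisons 0 members were called under every alternative run. In Tconv against naive cells, dropping the fold threshold raised the members called from 2 to 4 in HP1a WT and from 1 to 3 in HP1g KO cells. Leaving out 1 library gave 1 to 2 members in HP1a KO, 2 to 3 in HP1g WT and 1 to 2 in HP1g KO cells. In HP1a KO cells Runx3 was lost without Tconv replicate 2 or naive replicate 1 or 2, and Cd8a was gained without Tconv replicate 1 in HP1g KO and in HP1g WT cells. The log2 fold change of Cd8a that chose the members, 3.91, ranged from 3.63 without HP1a WT Tconv replicate 3 to 4.18 without HP1a WT Tconv replicate 1. Of the log2 fold changes of members under alternatives, 1093 were counted as unchanged, 5 gained a call and 3 lost one. Another 88, none of them called in either setting, changed sign. Sign changes of members other than Cd8a were not counted in HP1a KO against WT Tconv, the contrast that chose them. No calls were counted there, nor for Cd8a where those libraries enter the fit. With the replicate block, Cd8a in HP1g WT Tconv against naive cells was 2.25 with an adjusted p of 0.0300, which made 3 members called in place of 2, as did DESeq2 and the fit without the filter, and the block changed no other member's call. For KO against WT in HP1a naive, Tconv and Tconv with Treg and HP1g naive, Tconv and Tconv with Treg, edgeR called 0, 16, 20, 1, 7 and 0 genes, DESeq2 15, 201, 707, 38, 258 and 604, edgeR without the filter 5, 35, 177, 24, 60 and 181 and with the block 12, 30, 5, 0, 74 and 30. With 1 library left out these ranged, in the same order, from 0 to 0, 4 to 22, 0 to 115, 0 to 21, 0 to 12 and 0 to 362. For Treg in HP1a WT, HP1a KO, HP1g WT and HP1g KO cells the counts were 932, 71, 2 and 0 by edgeR, 1754, 429, 52 and 263 by DESeq2 and 1067, 126, 6 and 29 without the filter. Leaving out 1 library gave 4 to 58 in HP1a KO, 0 to 2 in HP1g WT and 0 to 21 in HP1g KO cells. In HP1a WT cells leaving out Tconv replicate 1, 2 or 3 lowered this count to 315, 378 or 306, and leaving out Tconv with Treg replicate 1 or 3 gave 608 or 1450. For the 2 differences of effects edgeR called 0 and 506 and DESeq2 15 and 1447 genes, and with 1 library left out the first ranged from 0 to 53 and the second from 51 (HP1g KO replicate 1) to 903 (HP1g KO replicate 2). Where 1 of the 2 HP1g KO Tconv with Treg libraries was left out, the lone one was assumed to vary like the other groups. With the excluded library 12 genes differed between the lines. The causes were not tested. Depth limits Cd8a most, with 0 to 103 counts a library.

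Sign changes in HP1a KO against WT Tconv were followed for Cd8a alone. Log2 fold changes that changed sign were not called in any setting. With the excluded library they were -0.33 for Cd8b1, 1.61 for Runx1, 0.22 for Runx3 and -0.53 for Cbfb in HP1g KO against WT Tconv with Treg, -0.0060 for Cd4, 2.56 for Zbtb7b, 1.31 for Runx1 and 0.20 for Runx3 in HP1g KO cells with against without Treg, -0.030 for Cd4 and 1.45 for Runx1 in the interaction of genotype and Treg and -2.34 for Zbtb7b, -1.30 for Runx1, -0.30 for Runx3 and 0.44 for Cbfb in the difference between the lines. Without the filter they were -0.025 for Cbfb in HP1g KO against WT naive cells, -0.0032 for Cbfb in HP1g KO against WT Tconv with Treg, -0.0015 for Zbtb7b in HP1a KO cells with against without Treg and -0.019 for Zbtb7b in HP1a WT Tconv against naive cells. Other settings gave -0.010 for Cbfb in HP1g KO against WT Tconv with Treg and -0.017 for Cd8a in the interaction of genotype and Treg by DESeq2, -0.0096 for Cbfb in HP1g KO against WT Tconv with Treg with RLE factors and 0.029 for Cbfb in the interaction of genotype and Treg with the block. With replicate 1 left out of each HP1g group, an alternative chosen after seeing the data, they were 0.034 for Cd8a in HP1g KO against WT Tconv, 0.41 for Cd8a and -0.027 for Cbfb in HP1g KO against WT Tconv with Treg and 0.10 for Zbtb7b in HP1g KO cells with against without Treg. With 1 library left out, the ranges were -0.021 to 0.075 for Runx3 and -0.052 to 0.051 for Cbfb in HP1a KO against WT naive cells. They were -0.28 to 0.14 for Cd4 and -0.35 to 0.31 for Runx3 in HP1a KO against WT Tconv with Treg. Ranges of -0.12 to 0.085 for Cbfb in HP1g KO against WT naive cells were found. Values spanned -0.68 to 0.48 for Cd8a, -0.087 to 0.17 for Zbtb7b and -0.047 to 0.24 for Cbfb in HP1g KO against WT Tconv. They were -5.65 to 0.90 for Cd8a, -0.17 to 0.33 for Cd8b1, -0.43 to 0.46 for Zbtb7b and -0.11 to 0.083 for Cbfb in HP1g KO against WT Tconv with Treg. Ranges of -0.26 to 0.18 for Cd4, -0.44 to 0.20 for Runx3 and -0.00013 to 0.17 for Cbfb in HP1a WT cells with against without Treg were found. Values spanned -0.10 to 0.11 for Zbtb7b, -0.14 to 0.051 for Runx1 and -0.22 to 0.059 for Runx3 in HP1a KO cells with against without Treg. They were -0.089 to 0.091 for Cd4 and -0.32 to 0.085 for Cd8b1 in HP1g WT cells with against without Treg. Ranges of -0.63 to 0.26 for Zbtb7b in HP1g KO cells with against without Treg were found. Values spanned -0.11 to 0.091 for Zbtb7b in HP1a WT Tconv against naive cells. They were -0.012 to 0.24 for Zbtb7b in HP1a KO Tconv against naive cells. Ranges of -5.45 to 3.35 for Cd8a, -0.43 to 0.42 for Zbtb7b, -0.030 to 0.16 for Runx3 and -0.26 to 0.046 for Cbfb in the interaction of genotype and Treg were found. Values spanned -1.09 to 7.70 for Cd8a, -0.10 to 0.76 for Zbtb7b, -0.10 to 0.55 for Runx3 and -0.17 to 0.0037 for Cbfb in the difference between the lines.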
